A study of Mus musculus with 9 samples.

Results

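Whole E15.5 kidneys in which Cre can remove both *Ntn1* alleles from the stroma were compared with all kidneys of the series that keep at least 1 intact *Ntn1* allele there. Bulk RNA-seq gave 9 libraries from embryos on a C57Bl6/J background, 3 per genotype. The 3 MUT libraries came from Foxd1GC/+;Ntn1fl/fl kidneys, which carry the *Foxd1* GFP-Cre allele and 2 floxed *Ntn1* alleles. The other 6 were the 3 HET libraries from Foxd1GC/+;Ntn1fl/+ kidneys, with the same Cre and 1 floxed allele, and the 3 WT libraries from Ntn1fl/fl kidneys, which have floxed alleles and no Cre. The floxed allele is therefore carried by every embryo, and the loss of 1 *Foxd1* copy through the knock-in by MUT and HET but not by WT. The GFP-Cre sits in *Foxd1*, so recombination is driven in stromal progenitors and their descendants, and the whole kidney also holds cells in which *Ntn1* stays intact. Each library is numbered 1 to 3 within its genotype.

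Expression was given as FPKM, the fragments per kilobase of transcript scaled to the size of the library. Of the 24138 loci in the table, 10083 averaged 5 FPKM or more in the 3 MUT or the 6 other libraries and were compared. A locus was singled out where all 3 MUT libraries lay outside the range of the other 6. This picked 96 loci, or 0.952% of those compared, with MUT above all 6 at 38 (0.377%) and below all 6 at 58 (0.575%). Since these values chose the loci, the fold changes of the 96 are a description and carry no test. If all 9 libraries were interchangeable, any given 3 would lie outside the other 6 with probability 0.0238 over the 84 splits. The share picked was lower than that.

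Netrin 1 is a secreted, laminin-related guidance cue that binds Unc5 receptors, Dcc and neogenin, and is best known from axon and vessel guidance. In the developing kidney the *Foxd1*-expressing stromal progenitors surround the caps of nephron progenitors and give rise to interstitial fibroblasts, mesangial cells, pericytes, vascular smooth muscle and renin cells. Wnt ligands, Notch signals and TGF-beta family members pass between the stroma, the nephron lineage and the ureteric bud, and collagens are laid down mainly by the stroma.

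No locus passed the test across all 10083. In limma on log2(FPKM + 1), with Benjamini-Hochberg adjustment, 0 loci (0%) had an adjusted p under 0.05, and the lowest value reached was 0.921. Before adjustment, 290 loci (2.88%) had p under 0.05, with 118 higher in MUT (1.17%) and 172 lower (1.71%). The 2.88% is below the 0.05 that the threshold gives where no locus differs. The adjusted p of the 96 singled-out loci ran from 0.921 to 0.935. Of the 38 and the 58, 14 and 16 had means that differed by 1.2 times or more, a size reached in either direction by 6.44% of all loci compared, and the plot of fold change against level sets them beside the rest.

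**Figure D1:**
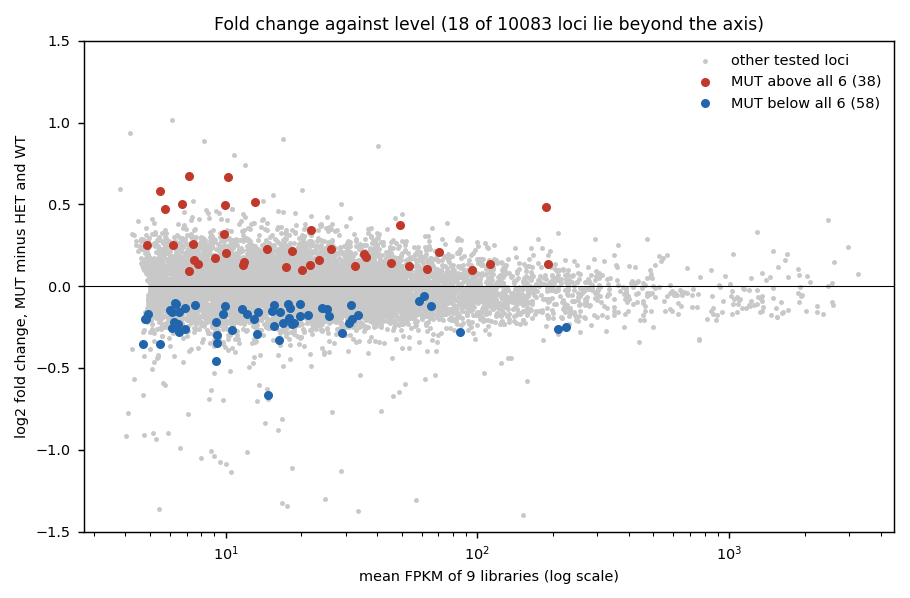
Log2 fold change of MUT minus the 6 HET and WT libraries on log2(FPKM + 1), against the mean FPKM of the 9 libraries on a log scale, for the 10083 loci compared, with 18 lying beyond the axis. The 38 loci with MUT above all 6 (red) and the 58 with MUT below all 6 (blue) lie at low and middle levels, with none among the loci of highest FPKM, and many grey loci have larger fold changes.

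The targeted gene was examined first. *Ntn1* (chromosome 11, 68209364 to 68386826, mm10) was at 10.8, 16.5 and 11.04 FPKM in MUT, at 12.3, 12.0 and 16.5 in HET and at 26.1, 28.9 and 17.8 in WT. The MUT and HET libraries overlapped, and both lay below every WT library, so *Ntn1* itself was not among the 58 loci below. MUT-2 was the highest of the MUT libraries, and without it MUT lay below all 6 others (log2 fold change -0.67, adjusted p = 0.999 in limma). The log2 fold change of MUT against the other 6 was -0.49 (standard error 0.26, adjusted p = 0.921 in limma). The exact two-sided permutation p was 0.167 (n = 3 and 6). These values sum the locus over all cells of the kidney, and in bulk samples fewer cells of a type and less RNA per cell cannot be told apart.

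*Foxd1*, the transcription factor that holds the Cre insertion, was at 24.8, 22.5 and 24.3 FPKM in MUT, 21.7, 20.2 and 21.5 in HET and 33.7, 33.4 and 25.8 in WT. All 6 libraries with the knock-in were below the 3 without it, and MUT lay above HET. Its log2 fold change of MUT against the other 6 was -0.09 (standard error 0.16, adjusted p = 0.945 in limma, exact permutation p = 0.679, n = 3 and 6).

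The other netrins and netrin receptors were not outside the range of the other 6 in MUT. *Unc5b*, a receptor found on endothelium, was at 21.7, 18.7 and 14.9 FPKM in MUT against 14.1, 14.3 and 13.5 in HET and 21.5, 15.4 and 12.6 in WT (log2 fold change 0.26, exact permutation p = 0.214, n = 3 and 6). The locus of *Ntn3*, another secreted netrin, which the files join with *Tbc1d24*, was at 9.70, 10.4 and 8.004 FPKM in MUT against 6.62, 7.19 and 8.23 in HET and 9.74, 7.64 and 7.91 in WT (log2 fold change 0.22, exact permutation p = 0.119, n = 3 and 6). WT-1 lay within the MUT range at both loci, as did WT-2 at *Unc5b* and HET-3 at *Ntn3*. Of the other tested genes of the list, *Unc5c*, *Neo1* and *Ntng2* (a locus joined with *6530402F18Rik*) had log2 fold changes of -0.05, 0.10 and 0.20, and *Ntn4*, *Ntn5*, *Ntng1*, *Dcc*, *Unc5a*, *Unc5d*, *Dscam*, *Adora2b* and *Draxin* stayed under the 5 FPKM minimum.

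The libraries differed in ways that genotype does not set. Their FPKM summed to 453754 to 545598, and the spacing of the lowest values gave a rough relative depth from 0.572 to 1.28 with WT-1 at 1. *Xist* was high only in MUT-1 and HET-3 (173 and 187 FPKM, at most 1.25 in the others), where Y-linked genes were near 0, so each side held 1 library of that pattern. Hepatocyte markers summed to 908.5 FPKM in HET-2 and to at most 65.55 elsewhere, with *Alb*, which codes for serum albumin, at 244 FPKM in HET-2 and at most 4.77 in the others. Skeletal muscle markers summed to 252 FPKM in HET-3 against at most 45.5 elsewhere. MUT-1 and WT-1 correlated most closely of all pairs of libraries (r = 0.984 across genes).

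Among the 6 HET and WT libraries, WT-1 decided the most of the count. At 256 loci it alone kept MUT from lying above all the others, and at 189 from lying below, against 7 to 18 and 3 to 53 for each of the other 5. Without WT-1 the rule gave 294 loci above (2.91%) and 249 below (2.47%), together 5.38%. Leaving out MUT-1, MUT-2 or MUT-3 gave 286, 105 and 336 above and 214, 120 and 499 below, while leaving out HET-3 or WT-2 gave 89 and 111 below. Fewer libraries make the rule easier to meet by construction.

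**Figure D2:**
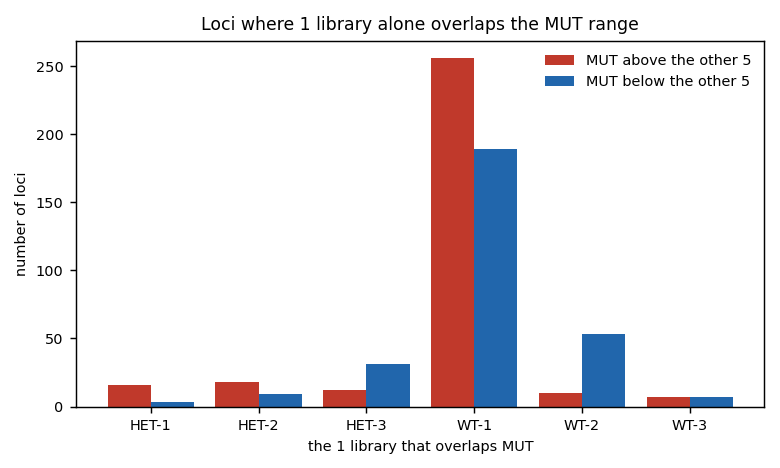
Number of loci at which a single HET or WT library (x axis) overlapped the MUT range while the other 5 did not, with MUT above those 5 in red and below them in blue. WT-1 stands at 256 and 189, and no other library passes 53.

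Among the 38 loci above, the mean FPKM of MUT was 1.07 to 1.65 times that of the other 6 (median 1.15), and log2 fold changes ran from 0.09 to 0.67 (median 0.20). The distance on the log2 scale between the lowest MUT and the highest other library was small, with a median of 0.027, and passed 0.1 at only 4 loci. The 15 with the largest fold change and a single established gene name are described first.

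*Spink8*, a Kazal-type serine protease inhibitor gene, was at 9.63, 8.23 and 11.1 FPKM in MUT, 6.71, 7.08 and 7.28 in HET and 3.23, 6.87 and 4.04 in WT. The lowest MUT library stood 0.16 above the highest other on the log2 scale, and WT-2 sat with HET rather than with WT-1 and WT-3 (log2 fold change 0.67, standard error 0.21). *Sprr2f*, of the small proline-rich family known from the cornified envelope, was at 15.2, 13.1 and 13.0 FPKM in MUT, 12.0, 10.6 and 7.37 in HET and 7.51, 7.59 and 5.90 in WT (log2 fold change 0.67, standard error 0.17). Since the *Sprr2* genes are close paralogs, its reads may be shared among them.

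*Pllp*, which codes for the membrane protein plasmolipin, was at 7.38, 6.47 and 7.97 FPKM in MUT, 5.36, 6.07 and 4.46 in HET and 3.75, 4.21 and 3.63 in WT. *Ctse*, the gene of the aspartic protease cathepsin E, was at 7.67, 10.1 and 7.98 FPKM in MUT, 6.77, 6.86 and 6.04 in HET and 4.50, 5.45 and 5.01 in WT. *Nts*, the precursor of the peptide neurotensin, was at 10.6, 17.0 and 10.4 FPKM in MUT, 9.86, 9.77 and 8.47 in HET and 8.14, 7.15 and 7.76 in WT. At these 3 genes the 3 genotypes did not overlap at all, with WT lowest, HET between and MUT highest, at log2 fold changes of 0.58, 0.50 and 0.49 for MUT against the other 6. In *Nts* the highest MUT value came from MUT-2 alone, and once each library was corrected for GC content MUT overlapped the other 6.

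*Foxq1*, a forkhead factor that is induced by canonical Wnt signals in many tissues, was at 16.7, 17.9 and 15.2 FPKM in MUT, 12.2, 13.1 and 10.3 in HET and 13.1, 9.75 and 9.82 in WT. Its gap of 0.20 on the log2 scale was the widest of all 96 loci (log2 fold change 0.51, standard error 0.11), and HET and WT overlapped.

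*Col1a1*, the alpha 1 chain of type I collagen with the highest FPKM of the 15, was at 240.4, 214 and 232 FPKM in MUT, 153, 143 and 173 in HET and 210.1, 200.1 and 118 in WT. The gap between MUT and the nearest of the other 6 libraries was 0.027 on the log2 scale, and WT-3 was lowest. After quantile normalization MUT no longer lay above all 6 at *Col1a1*. *Col8a2*, the alpha 2 chain of type VIII collagen, was at 10.8, 13.2 and 10.5 FPKM in MUT, 7.61, 9.56 and 10.3 in HET and 10.2, 8.43 and 7.98 in WT, so that MUT-3, HET-3 and WT-1 were nearly level.

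*Bmf* and *Bbc3* both code for BH3-only proteins, which promote apoptosis by binding Bcl2 family members. *Bmf* was at 26.2, 28.6 and 22.1 FPKM in MUT, 20.5, 20.7 and 20.7 in HET and 21.0, 19.6 and 17.2 in WT (log2 fold change 0.34). *Bbc3*, the gene of Puma, was at 6.96, 7.52 and 6.54 FPKM in MUT, 5.83, 6.06 and 5.83 in HET and 5.61, 6.08 and 4.98 in WT (log2 fold change 0.25). The 6 other libraries lay close together at both, apart from a low WT-3.

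*Jund*, an AP-1 subunit, was at 61.0, 57.2 and 55.6 FPKM in MUT, 53.2, 43.7 and 41.6 in HET and 46.0, 46.2 and 37.7 in WT (log2 fold change 0.37). *Tgfb1*, the ligand TGF-beta 1, was at 17.3, 15.8 and 15.8 FPKM in MUT, 13.2, 13.0 and 13.1 in HET and 15.2, 15.52 and 12.9 in WT (log2 fold change 0.23), with HET below WT on average. The other 3 named loci were *Fam129a*, a stress-induced gene, *Phactr1*, a regulator of protein phosphatase 1 and actin, and *Lingo1*, a leucine-rich repeat protein of the Nogo receptor complex, with log2 fold changes of 0.47, 0.26 and 0.25. *Phactr1* cleared WT-1 by 0.0038 on the log2 scale.

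The remaining loci above had ratios of mean FPKM of 1.07 to 1.17. Ligands among them were *Pdgfc*, at 25.4, 24.9 and 25.5 FPKM in MUT against 19.9 to 24.4 in the other 6, and *Efnb3*, the membrane-bound ligand ephrin B3, at 12.7, 12.2 and 12.5 against 10.3 to 12.0. *Egln1*, the prolyl hydroxylase that marks HIF alpha subunits for degradation, was at 34.2, 35.5 and 34.3 against 29.5 to 34.0. Transcription factors among them included *Hoxc10* and *Atf5*, at mean ratios of 1.13 and 1.10.

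**Figure D3:**
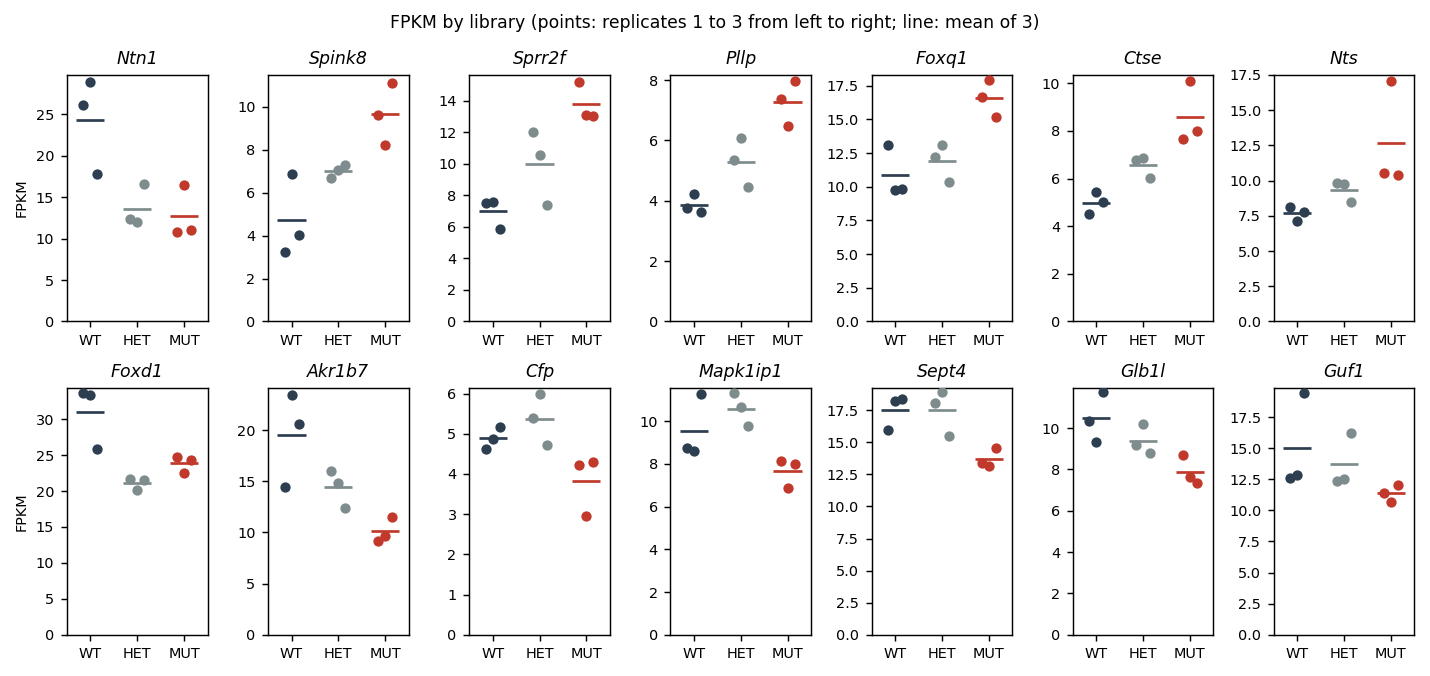
FPKM of each library (points, replicates 1 to 3 from left to right) and the mean of 3 (line) in WT, HET and MUT for *Ntn1* and *Foxd1* and for the 6 named loci with the largest fold change in each direction, each with its own axis from 0. In the 12 singled-out genes the red MUT points lie wholly above (top) or below (bottom) the others, whereas at *Ntn1* they overlap HET and at *Foxd1* they lie between HET and WT.

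Among the 58 loci below, the mean FPKM of MUT was 0.597 to 0.959 times that of the other 6 (median 0.868), and log2 fold changes ran from -0.06 to -0.66 (median -0.19). Only 1 of them passed a gap of 0.1 on the log2 scale, a locus with the joined names *AA465934* and *AI450353*.

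*Akr1b7*, an aldo-keto reductase that marks renin-lineage cells in the developing kidney, had the largest fold change below. It was at 9.19, 9.67 and 11.5 FPKM in MUT, 16.01, 14.8 and 12.4 in HET and 14.5, 23.4 and 20.6 in WT. HET-3 came nearest to MUT, WT-2 and WT-3 were highest, and the mean was 10.1 ± 1.21 FPKM (s.d., n = 3) in MUT, 14.4 ± 1.86 in HET and 19.5 ± 4.57 in WT (log2 fold change of MUT against the other 6 -0.66, standard error 0.17). It has close paralogs in the *Akr1b* cluster, among which reads may be shared.

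The renin locus itself, given under the joined names *Ren1* and *Ren2*, was not outside the range. It was at 75.2, 106 and 64.3 FPKM in MUT, 108, 115 and 69.4 in HET and 149, 137 and 136 in WT. MUT and HET overlapped, and both lay below all 3 WT libraries (log2 fold change of MUT against the other 6 -0.53, adjusted p = 0.921 in limma).

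*Cfp*, the gene of properdin, a positive regulator of the alternative complement pathway, was at 4.23, 2.95 and 4.29 FPKM in MUT, 5.39, 5.99 and 4.73 in HET and 4.62, 4.88 and 5.18 in WT. MUT-2 was well below MUT-1 and MUT-3, and the locus is on chromosome X. *Sept4*, a septin of the cytoskeleton, listed under a name that a spreadsheet had turned into a date and identified by its position, was at 13.4, 13.2 and 14.5 FPKM in MUT, 18.1, 19.0 and 15.48 in HET and 15.9, 18.2 and 18.4 in WT. Its 3 MUT libraries were close together and its HET and WT means were equal within their spread (17.5 ± 1.81 and 17.5 ± 1.36, s.d., n = 3).

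*Mapk1ip1*, named for an interaction with a MAP kinase, was at 8.13, 6.89 and 7.98 FPKM in MUT, 11.3, 10.7 and 9.76 in HET and 8.74, 8.59 and 11.3 in WT. *Sgk1*, the serum- and glucocorticoid-regulated kinase that acts on epithelial sodium transport, was at 26.5, 24.6 and 23.8 FPKM in MUT, 28.5, 32.1 and 27.5 in HET and 33.6, 27.5 and 36.3 in WT. *Clca3a1*, of the family of calcium-activated chloride channel regulators, was at 5.85, 5.40 and 5.47 FPKM in MUT, 6.17, 6.21 and 6.77 in HET and 7.54, 6.60 and 8.98 in WT. For all 3 the values varied more among the 6 other libraries than among the 3 MUT libraries, and WT-3 was near or at the top.

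*Dkk1*, a secreted inhibitor that binds the Lrp5 and Lrp6 co-receptors of Wnt, was at 14.6, 15.02 and 15.4 FPKM in MUT, 19.9, 18.3 and 16.1 in HET and 18.4, 15.8 and 18.1 in WT (log2 fold change -0.23). WT-2 lay 0.036 above the highest MUT library on the log2 scale. *Hey1*, a bHLH repressor induced by Notch, was at 29.5, 25.2 and 28.0 FPKM in MUT, 35.0, 35.1 and 31.0 in HET and 32.4, 29.6 and 31.4 in WT (log2 fold change -0.22). The distance from MUT-1 to WT-2 at *Hey1* was only 0.0018, so that the call rests on 2 nearly equal values.

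*Ybx2*, a Y-box protein of germ cells that binds RNA, was at 5.85, 5.39 and 5.74 FPKM in MUT, 7.79, 6.23 and 6.04 in HET and 7.40, 6.73 and 6.90 in WT. *Mbnl1*, a regulator of alternative splicing, was at 16.8, 15.2 and 16.8 FPKM in MUT, 20.0, 18.0 and 21.3 in HET and 17.4, 17.3 and 21.7 in WT. *Ewsr1*, of the FET family of RNA-binding proteins, was at 203, 153 and 199 FPKM in MUT, 216, 219 and 236 in HET and 211, 203 and 245 in WT, with MUT-2 far below MUT-1 and MUT-3 and the highest MUT and the lowest other value practically equal. *Clk3*, a kinase of SR splicing proteins, was at 23.9, 22.5 and 24.1 FPKM in MUT against 24.5 to 29.6 in the other 6.

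The other named loci below were *Glb1l*, *Guf1*, *Lhx1os*, *Zfp707*, *Svopl* and *Ivns1abp*, with log2 fold changes of -0.30, -0.29, -0.27, -0.26, -0.26 and -0.25. *Lhx1os* is a non-coding RNA opposite *Lhx1*, and without a statement on how strand was used in counting its reads cannot be told apart from those of its neighbour, which had a log2 fold change of -0.05. Smaller differences below were seen at *Slc2a1*, the glucose transporter Glut1, with 29.8, 30.8 and 31.6 FPKM in MUT against 32.0 to 38.9, at *Pdgfa*, a ligand of Pdgfra, with 30.2, 29.8 and 29.3 against 31.1 to 34.6, and at *Nek2*, a centrosomal mitotic kinase, with 19.5, 14.99 and 19.9 against 20.1 to 21.3. *Pdgfa* lay on the other side of the rule from *Pdgfc*.

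**Figure D4:**
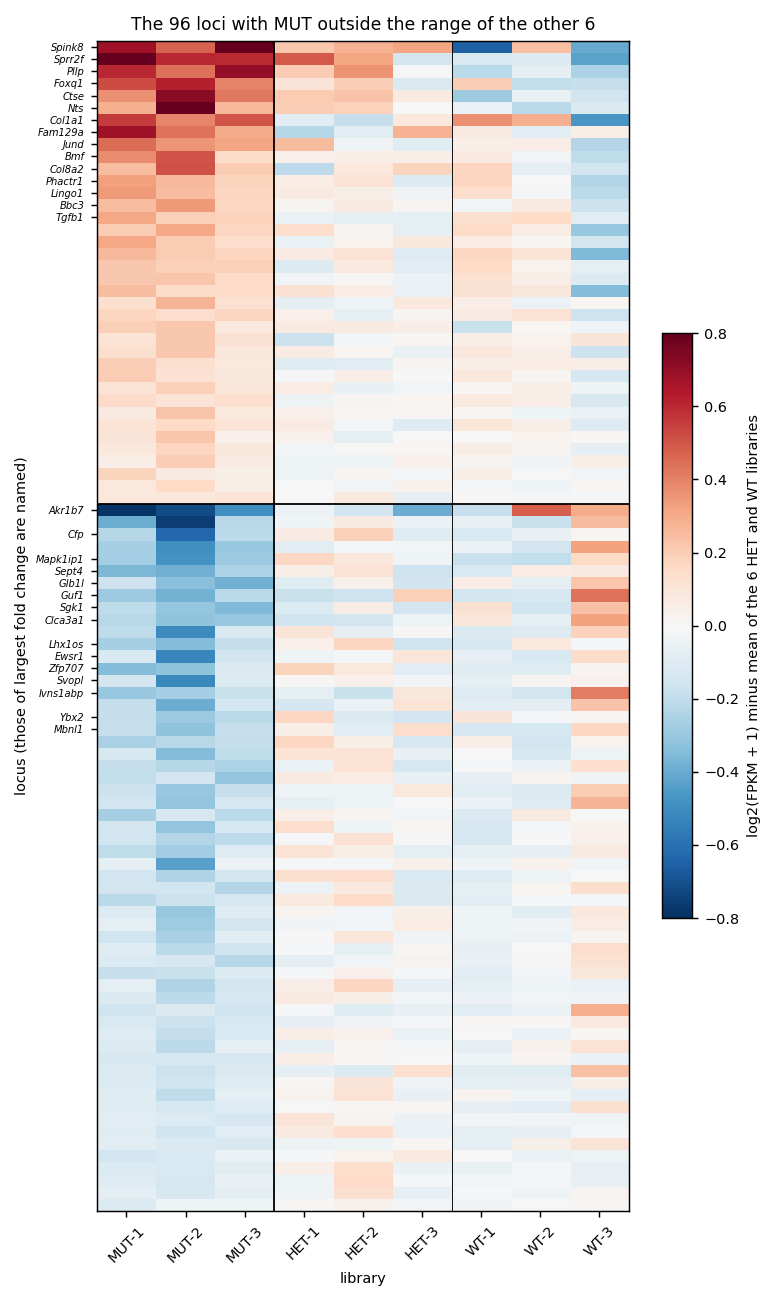
Log2(FPKM + 1) of each library minus the mean of the 6 HET and WT libraries, for the 96 singled-out loci (rows, by fold change within each direction, 38 above the black line and 58 below, labelled for the 15 of largest fold change in each direction that carry a single established name) in the 9 libraries (columns). The MUT columns are of 1 colour by the rule; among the other 6, WT-3 holds the most extreme values opposite to MUT.

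At the limit of the rule, *Pam*, a peptide-amidating enzyme, and *Ube2d2a*, a ubiquitin-conjugating enzyme, were just inside it above, with gaps of 0.0015 and 0.0020 on the log2 scale. *Ppp2r2a* and *Eif4e3* were just outside, with overlaps of the same size (-0.0021 and -0.0024). Below, *Ewsr1* and *Usp8* were just inside (0.00036 and 0.0016) and *Ccdc134* and *Enkd1* just outside (-0.00062 and -0.0013).

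The 6 libraries that retained *Ntn1* differed among themselves at the singled-out loci. HET was between MUT and WT by its mean at 23 of the 38 above, including *Spink8*, *Sprr2f*, *Pllp*, *Ctse*, *Nts* and *Foxq1*, and at 21 of the 58 below, including *Akr1b7*. Over all loci compared, the HET mean was above the WT mean at 50.8%, so these counts alone show no graded order of the genotypes. At the remaining loci it was the WT mean that lay nearer to MUT, as at *Col1a1*, *Tgfb1*, *Mapk1ip1*, *Hey1* and *Dkk1*. The 3 HET and 3 WT libraries did not overlap at 7 of the 96, including *Pllp*, *Ctse* and *Nts*, with HET higher, and *Chic2*, *Osbpl1a* and the locus of *Lrfn1* and *Mir466f-2*, with HET lower, against 3.04% of all loci compared (HET higher at 2.08%). Taken alone, MUT did not overlap HET at 9.64% of all loci and did not overlap WT at 2.68%, which the 96 do by the rule. In limma with the 3 genotypes apart, the adjusted p of HET against WT was 0.999 to 1.0 over the 96, and that of MUT against HET, which shares the MUT libraries, ran from 0.836 to 0.885. The adjusted p of MUT against WT ran from 0.441 to 1.0.

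Single libraries marked the ends of the range. WT-3 was the library farthest from MUT at 21 of the 38 loci above and 26 of the 58 below, and WT-1 the nearest at 15 and 17. HET-2 was farthest at 17 of the 58 and HET-1 at 11. At *Col1a1*, *Guf1*, *Ivns1abp* and *Pls1*, WT-3 was the library farthest from MUT.

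Median GC content was 50.8% over the loci above and 48.8% over those below, beside 49.8% over all loci compared, and median transcript length 3228, 3096 and 3351 bases. The median of the mean FPKM in the other 6 was 15.4, 15.1 and 18.5. When each library was corrected for GC content, 24 of the 38 and 34 of the 58 still lay outside the range (3 of the 58 had no GC value), and after median-ratio scaling 21 and 40. Under both of these and quantile normalization, 33 of the 96 lay outside each time, among them *Spink8*, *Sprr2f*, *Pllp*, *Foxq1*, *Ctse*, *Bmf*, *Tgfb1*, *Akr1b7*, *Cfp*, *Mapk1ip1* and *Dkk1*, whereas *Nts*, *Col1a1*, *Jund*, *Col8a2*, *Phactr1*, *Lingo1*, *Bbc3*, *Glb1l*, *Sgk1*, *Lhx1os*, *Zfp707*, *Svopl*, *Ivns1abp*, *Hey1* and *Ewsr1* came back inside under at least 1 of them.

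Promoter sequence is shown for the 2 named loci of largest fold change in each direction that RefSeq covers, as the 250 bases before the start on GRCm38.p6, 5' to 3' on the strand of the gene. Capitals mark motifs, which were searched on both strands. The letters TATAAA stand for the box bound by the general initiation machinery, CCAAT for the element recognised by nuclear factor Y, and GGGCGG for the box bound by Sp1-like proteins. TGGGAA is the core recognised by Rbpj in the Notch pathway, and ATCAAAG the core recognised by Tcf and Lef proteins in the Wnt pathway.
Sprr2f, chr3:92364937-92365186, plus strand: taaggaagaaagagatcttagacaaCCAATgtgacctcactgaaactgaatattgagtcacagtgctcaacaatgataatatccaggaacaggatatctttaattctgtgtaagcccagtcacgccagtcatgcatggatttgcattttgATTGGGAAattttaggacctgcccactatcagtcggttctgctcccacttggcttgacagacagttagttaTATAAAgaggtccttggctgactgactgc
Pllp, chr8:94696243-94696492, minus strand: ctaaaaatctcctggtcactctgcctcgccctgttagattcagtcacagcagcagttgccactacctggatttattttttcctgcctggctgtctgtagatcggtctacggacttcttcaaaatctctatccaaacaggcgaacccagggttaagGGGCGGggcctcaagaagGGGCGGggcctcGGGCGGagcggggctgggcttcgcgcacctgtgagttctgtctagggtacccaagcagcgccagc
Akr1b7, chr6:34412112-34412361, plus strand: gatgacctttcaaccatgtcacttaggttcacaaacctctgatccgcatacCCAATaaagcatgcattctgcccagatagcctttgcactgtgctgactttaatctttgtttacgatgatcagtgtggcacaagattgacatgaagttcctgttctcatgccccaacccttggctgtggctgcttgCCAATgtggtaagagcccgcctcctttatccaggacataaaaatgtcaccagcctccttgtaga
Cfp, chrX:20931556-20931805, minus strand: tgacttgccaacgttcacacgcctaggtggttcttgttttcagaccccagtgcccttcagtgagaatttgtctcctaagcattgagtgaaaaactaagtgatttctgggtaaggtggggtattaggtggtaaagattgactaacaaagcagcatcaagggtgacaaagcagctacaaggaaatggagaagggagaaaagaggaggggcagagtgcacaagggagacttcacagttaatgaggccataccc

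*Sprr2f* held TATAAA at -29 and CCAAT at -225 and, on the other strand, at -100, where it overlaps TGGGAA at -98. *Pllp* held GGGCGG at -95, -77 and -65, and *Akr1b7* held CCAAT at -199 and -64. *Cfp* held none of these letters in this window. Over the 24 loci above and 42 below with a RefSeq promoter, GGGCGG was found in 70.8% and 47.6%, beside 63.8% of the promoters of 7703 loci compared. CCAAT was found in 16.7% and 42.9% beside 36.9%, TATAAA in 12.5% and 7.14% beside 5.83%, and TGGGAA in 16.7% and 11.9% beside 19.9%. ATCAAAG was found in none of these 66 and in 2.25% of all. Median GC content of these windows was 65.6% above and 57.8% below, beside 60.8%. A match in letters is a description and not a binding site.

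Gene lists were then read by their counts, beside all loci compared, of which 46.8% had a positive log2 fold change and the median was -0.01. They were chosen with earlier results of these data known, and 11 of the 96 loci belonged to one of them. No member of any list passed the adjusted test.

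Collagen genes lay on the higher side. All 24 compared had a positive log2 fold change (median 0.21), 2 were above all 6 (*Col1a1* and *Col8a2*, each inside under another scaling), none was below, and 5 had an unadjusted p under 0.05. The summed FPKM of the list was 1637, 1458 and 1350 in MUT, 1175, 1275 and 1217 in HET and 1499, 1285 and 967 in WT. WT-1 thus lay within the MUT range, and WT-3 was lowest. *Col1a2*, the partner chain of *Col1a1*, was at 254, 252 and 218 FPKM in MUT, 192, 211 and 191 in HET and 231, 198 and 142 in WT, so that only WT-1 reached into MUT. *Col15a1*, a basement-membrane collagen, was at 33.0, 25.7 and 21.4 FPKM in MUT, 17.1, 17.6 and 18.6 in HET and 27.4, 19.2 and 17.1 in WT, with the same library overlapping. Without WT-1, 6 of the 24 lay above (*Col15a1*, *Col16a1*, *Col1a1*, *Col1a2*, *Col5a1* and *Col8a2*), against 2.91% of all loci.

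Of the canonical Wnt pathway, 43 of 50 genes had a positive log2 fold change (median 0.17). *Foxq1* was the only 1 above and *Dkk1* the only 1 below. Unadjusted p was under 0.05 for 5 genes higher in MUT, including *Wnt5a*, a stromal Wnt ligand, at 20.9, 23.5 and 14.9 FPKM in MUT, 13.6, 13.4 and 15.47 in HET and 19.2, 13.0 and 15.6 in WT. *Axin2*, a feedback inhibitor and target of the pathway, was also among them, at 10.7, 8.93 and 10.1 FPKM in MUT, 7.91, 7.96 and 8.33 in HET and 9.34, 8.93 and 7.03 in WT. WT-1 lay within the MUT range at both genes, as did WT-2 at *Axin2* and HET-3 and WT-3 at *Wnt5a*. Without WT-1, 6 of the 50 lay above, namely *Axin1*, *Foxq1*, *Fzd10*, *Fzd7*, *Lrp5* and *Tle3*, and *Dkk1* below. The summed FPKM of the list was highest in MUT-1 (1890) and WT-1 (1831) and at most 1763 elsewhere.

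**Figure D5:**
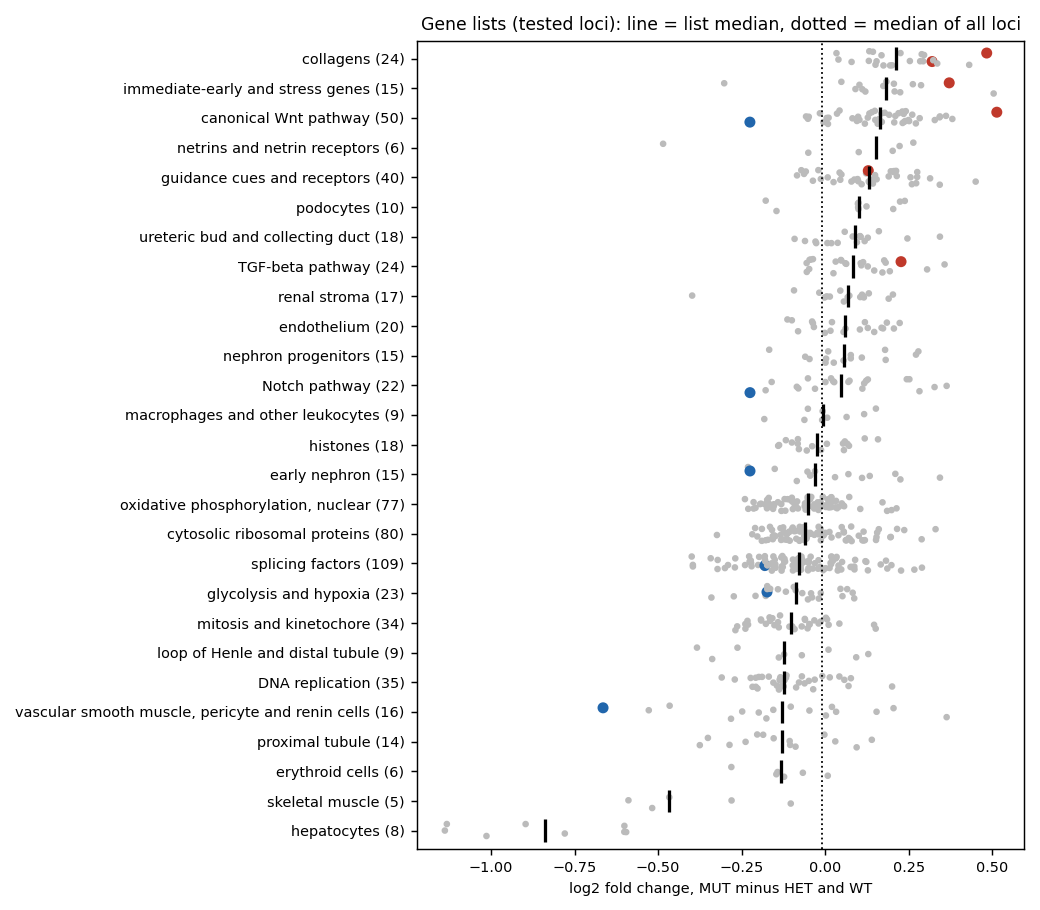
Log2 fold change of MUT minus HET and WT for every compared gene of each list with at least 3 (number in brackets), jittered in height. The sex-linked markers are left out. Black lines are list medians, the dotted line is the median of all loci (-0.01), and the large red and blue points are members with MUT above or below all 6, such as *Foxq1* (0.51) and *Akr1b7* (-0.66). Collagens (0.21) lie highest and hepatocyte markers (-0.84) lowest.

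Guidance cues and receptors other than netrins had 32 of 40 log2 fold changes positive (median 0.13), with *Efnb3* above and none below. The TGF-beta pathway had 18 of 24 positive (median 0.08), with *Tgfb1* above, and the Notch pathway 15 of 22 (median 0.05), with *Hey1* below. The summed FPKM of the TGF-beta list was 624.5, 543.7 and 547.8 in MUT. WT-1 (601), WT-2 (547) and HET-2 (547.8) lay in that range. Immediate-early and stress genes had 14 of 15 positive (median 0.18), with *Jund* above. With WT-1 left out, 3 guidance, 3 TGF-beta, 1 Notch and 2 immediate-early genes lay above, and 1 Notch gene below. Over all loci these shares were 2.91% and 2.47%. *Jun*, another AP-1 subunit, was at 57.3, 28.2 and 25.2 FPKM in MUT, 22.8, 23.9 and 21.6 in HET and 36.8, 22.3 and 19.7 in WT, so that the highest values were those of MUT-1 and WT-1.

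Among markers of stromal derivatives, vascular smooth muscle, pericyte and renin cells had 10 of 16 log2 fold changes negative (median -0.13), with *Akr1b7* below. The summed FPKM of this list was 829, 867 and 856 in MUT, 995, 1140 and 909 in HET and 900.3, 961 and 995 in WT, so that MUT did not overlap the other 6. Much of the sum was vimentin (*Vim*), at 335, 314 and 366 FPKM in MUT, 432, 487 and 405 in HET and 315, 393 and 399 in WT, which overlapped through WT-1. Taking *Vim* out of the sums puts MUT-2 above HET-3, so the separation of the sums rests on *Vim*. Smooth muscle actin (*Acta2*) also overlapped, at 52.4, 67.6 and 60.0 FPKM in MUT, 72.7, 95.0 and 66.6 in HET and 57.6, 54.7 and 72.1 in WT.

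The renal stroma list had 13 of 17 positive (median 0.07) and no member outside the range. Its largest difference was *Crabp1*, which binds retinoic acid in the cell, at 23.2, 20.6 and 31.8 FPKM in MUT, 33.6, 37.0 and 34.2 in HET and 23.4, 38.01 and 33.8 in WT, so that only WT-1 overlapped. Endothelium had 13 of 20 positive (median 0.06), nephron progenitors 12 of 15 (median 0.06), podocytes 8 of 10 (median 0.10) and ureteric bud and collecting duct 14 of 18 (median 0.09), all with no member outside. Leaving out WT-1 put *Apln* and *Flt1* of the endothelium above and *Tmem100* of the nephron progenitors below. The early nephron list had 7 of 15 positive (median -0.03, but 0.00046 after quantile normalization, 0.069 without MUT-3 and 0.043 without WT-1), with *Hey1* below. The proximal tubule had 3 of 14 (median -0.13), and the loop of Henle and distal tubule 3 of 9 (median -0.12), with none outside. The sign of the median turned to -0.04 without MUT-3 for nephron progenitors and without MUT-2 for podocytes.

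Proliferation genes lay mostly on the lower side, with 28 of 34 log2 fold changes negative for mitosis and kinetochore (median -0.10) and 29 of 35 for DNA replication (median -0.12). No member of these lists was below all 6, and *Nek2*, which was, is on neither. Leaving out WT-1 put *Nsl1* and *Zwilch* of the mitosis list below, against 2.47% of all loci, and no DNA replication gene. The survivin gene *Birc5*, for example, was at 102, 101 and 141 FPKM in MUT, 149, 142 and 129 in HET and 100.3, 149.7 and 133 in WT, where MUT-1, MUT-2 and WT-1 were the low libraries. Splicing factors had 79 of 109 negative (median -0.08), with *Clk3* below, and 7 lower and 1 higher at an unadjusted p under 0.05. Of the 109, 5 lay below and 2 above once WT-1 was left out. Glycolysis and hypoxia genes had 18 of 23 negative (median -0.09), with *Slc2a1* below, while *Egln1*, which was above all 6, is not on this list. Cytosolic ribosomal proteins had 52 of 80 negative (median -0.06) and nuclear oxidative phosphorylation genes 56 of 77 (median -0.05), both with none outside and both with a positive median (0.07) without MUT-1. Of these lists, only *Sdha* of oxidative phosphorylation lay outside, below, when WT-1 was left out. Histones had 10 of 18 negative (median -0.03, but 0.075 without MUT-1 and 0.010 without HET-1).

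Markers of blood and neighbouring tissues were also listed. Macrophages and other leukocytes had 5 of 9 negative (median -0.01, but 0.0065 after median-ratio scaling and 0.13 without MUT-1), erythroid cells 5 of 6 (median -0.13), hepatocytes 8 of 8 (median -0.84), skeletal muscle 5 of 5 (median -0.47), and neurons and Schwann cells 2 of 2 (median -0.18), while no adrenal or gonad marker reached the minimum. None of these had a member outside the range, and the hepatocyte and muscle medians go with HET-2 and HET-3 as given above. Without HET-2 the hepatocyte median was -0.068 and the erythroid median -0.024, and without HET-3 the muscle median was 0.0049. Their part in the values of the 96 loci was not tested.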

How the data were processed

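RNA from whole E15.5 kidneys of 3 genotypes (3 libraries each) was sequenced as strand-specific poly(A) libraries. According to the methods and the labels, reads were aligned with STAR, transcripts assembled with Cufflinks and FPKM computed with Cuffdiff on mm10, without versions or annotation in the sources used here. The FPKM deposited by the authors were used as they are. They are scaled for library size and transcript length, so reads behind a value are unknown and no counting error is given. Of the 24138 loci, 355 carry joined names, 4714 are at 0 in every library, and 26 names had been converted to dates and were restored by position in GENCODE M21, which also gave GC content for 95.87% of the loci.

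Loci that averaged 5 FPKM or more in either side (the minimum of the study) were compared, 3 MUT against 6 HET and WT libraries, by limma (version 3.58.1, R 4.3.3) fitted to log2(FPKM + 1), with a trend in eBayes, two-sided tests, Benjamini-Hochberg adjustment over 10083 loci and a threshold of 0.05. A fold change on this scale understates that of low genes. *Ntn1*, *Foxd1* and the netrin genes were also given an exact permutation test over the libraries (84 arrangements). Python 3.11.15, numpy 2.4.6, pandas 2.3.3 and matplotlib 3.10.9 were used for tables and figures. Steps were tested on simulated data.

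The comparison, the members and the gene lists were chosen with earlier results of these data known. Named were, by rule, *Ntn1*, *Foxd1*, sex-linked and netrin genes, the 15 singled-out loci of largest fold change in each direction with a single established name, list members among the 96 and the 2 loci on each side of the limit. Other genes of the lists, and smaller members, were named after their values were seen. Replicates are separate kidneys per the methods, which name 3 crosses as their source. The labels do not say which kidney came from which cross. Same-numbered libraries did not deviate together as a set (2 of 9 pairs with r over 0.1), so the number was not used as a block. MUT-1 and WT-1 were among these pairs, and their r of 0.555 was the highest of all pairs across genotypes. HET-1 did not share this, with r of -0.311 to MUT-1 and -0.188 to WT-1. Alternatives covered the block, 3 genotypes in the fit, pseudocounts, minimums, scaling, trend, GC content, chromosomes X and Y and each library left out. Other assays of the study were not analysed here.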

Additional observations from a re-analysis of the deposited data

Results flagged for a closer look

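Values were checked for 1 library standing apart among the 6 HET and WT libraries, by its gap to the nearest other divided by the range of the 6 (Dixon's ratio, 95% critical value). Of 62 values checked, 9 were past it. The critical value gives about 1 in 20 for independent, normally distributed values. These values are not independent, and 30 of them are loci chosen by the range of the same 6 libraries, so the 9 cannot be judged by it. All 9 were summed FPKM of gene lists. HET-2 stood highest for hepatocyte markers (908.5), erythroid markers (3495), adrenal and gonad markers (25.57) and markers of neurons and Schwann cells (79.0). HET-3 stood highest for skeletal muscle markers (252.0) and for the sex-linked markers (188.1), the latter through *Xist*. WT-1 stood highest for the canonical Wnt pathway (1831) and for guidance cues and receptors (894.4), and lowest for DNA replication (1404). The sums of MUT-1 for these 3 lists were 1890, 921 and 1478. *Ntn1*, *Foxd1* and the 30 named singled-out loci of largest fold change, among them *Akr1b7* and *Foxq1*, were not past the critical value. The other netrins, the netrin receptors and the single sex-linked genes were not among the values checked.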

How the results depend on the processing

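The 22 alternatives gave 643 values for the 30 named loci, since some loci had none under some of them. None passed an adjusted p of 0.05 (0.405 to 0.999 in limma); that the direction held in each says little, since the choice of loci largely fixes it. The log2 fold change of *Ntn1* stayed between -0.67 and -0.35 and that of *Foxd1* between -0.16 and -0.02. Leaving out single libraries, limma called 0 to 1 loci; the 1 came without MUT-2 and is *Snora68*, listed at 39.3 and 46.4 FPKM in MUT-1 and MUT-3 and at 0 in MUT-2 and all 6 others. The count above ran from 45 to 336 and the count below from 60 to 499 in the same series, depending on which library was left out (lowest above without WT-3, lowest below without HET-1, highest for both without MUT-3). The count above was 90 without a minimum and 59 with the GC correction, and the count below 94 at a minimum of 1 FPKM and 199 without one; fewer or more loci compared is part of the construction, and for the GC correction the cause was not tested. The replicate block gave 0 calls (465 loci at an unadjusted p under 0.05, against 290 without it; 510 with block and GC correction together) and changed no call. The count at an unadjusted p under 0.05 was 1200 without WT-1, 1051 without MUT-3 and 107 without MUT-2. Of 28 list medians, 19 kept their sign under every alternative; those of the early nephron (0.00046 after quantile normalization, up to 0.069 without MUT-3) and of macrophages (0.0065 after median-ratio scaling, up to 0.13 without MUT-1) turned both with the scaling and with single libraries left out. No count of reads is known, so depth limits small differences to an unknown degree.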
